A study of Homo sapiens with 4 samples.

Results

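The mRNAs of 10 subunits of the SWI/SNF chromatin remodelling complexes were examined for peaks of N7-methylguanosine (m7G) antibody enrichment in U2OS cells. The 10 genes are SMARCA2, SMARCA4, SMARCB1, SMARCC1, SMARCC2, SMARCD1, SMARCE1, ARID1A, ARID1B and PBRM1. They are set here against 20037 annotated protein-coding genes. The list was drawn up by gene name with earlier results of these data known, so its counts below are descriptions. A gene with no peak under its name would have counted as having none. All 10 had at least 1 peak in at least 1 replicate, and 6 of them had overlapping peaks in replicates 1 and 2.

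U2OS is an established human osteosarcoma cell line, and its cells had received no treatment. The immunoprecipitation (IP) group is 2 libraries of poly(A) RNA pulled down with an anti-m7G antibody, and the input group is 2 libraries of poly(A) RNA with no antibody step. The data used are 1 table of peaks for each IP replicate, with 4326 peaks in replicate 1 and 4862 in replicate 2. For each peak the authors gave its position on GRCh38, how many fold the IP signal stood over input, and a p-value with its false discovery rate. No read counts are given, so depth is unknown. Whether separate cultures were used for the replicates is not stated, so their spread may be technical.

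SWI/SNF complexes use the energy of ATP to slide or evict nucleosomes and so open DNA at promoters and enhancers. Each complex holds 1 ATPase (SMARCA4 or SMARCA2), a core built around SMARCC1 and SMARCC2, and further subunits that set its type: ARID1A or ARID1B in the canonical BAF form, PBRM1 in the PBAF form. Several subunits are tumour suppressors, and loss of SMARCB1 defines rhabdoid tumours. m7G is the base of the mRNA cap and has also been mapped inside mRNA, so a peak of this antibody at the first bases of a transcript may hold the cap, an internal site or both, and these cannot be told apart here.

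Peaks were called shared if their blocks had at least 1 bp of the same strand in common and each was the best overlap of the other. Replicate 1 held 11 peaks on 7 of the 10 genes, and replicate 2 held 16 peaks on 9 of them. Over all protein-coding genes, 15.9% had a peak in replicate 1, 17.4% in replicate 2 and 21.7% in either. A peak in both tables was present on 6 of the 10 genes and on 11.6% of all. Shared peaks numbered 8 on 6 genes (60%, Wilson 95% interval 31.3 to 83.2%), against 10.5% of all protein-coding genes. Among genes with a peak in either replicate, 60% of the SWI/SNF genes and 48.4% of all such genes had a shared peak. The SWI/SNF genes are long, with a median annotated length of 93667 nt against 24115 nt for all protein-coding genes. Of the 12325 protein-coding genes at least as long as the shortest of them, 10.7% had a shared peak and 23.2% a peak in either replicate. The tables do not measure expression, without which an mRNA gives no peak. The part of expression and length in these shares was not tested.

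**Figure D1:**
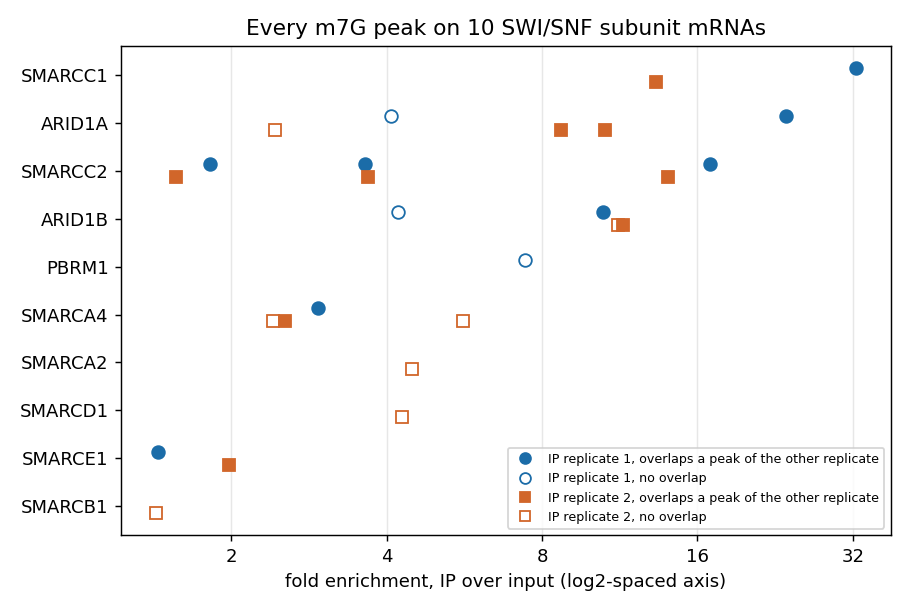
Fold enrichment of IP over input (x axis, log2-spaced) for each of the 27 peaks on the 10 SWI/SNF mRNAs (rows), with circles for IP replicate 1 and squares for IP replicate 2. Filled symbols overlap a peak of the other replicate and open symbols do not. SMARCC1, ARID1A, SMARCC2 and ARID1B hold all the filled symbols above a fold of 4.

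The core scaffold subunits carried strong shared peaks. SMARCC1 and SMARCC2 encode paralogous proteins on which the complex is assembled. SMARCC1 had 1 peak in each replicate, with a fold of 32.4 in replicate 1 and 13.3 in replicate 2. The SMARCC1 peak lay on chromosome 3, minus strand, from 47781705 to 47781915 in replicate 1 and from 47781705 to 47781885 in replicate 2. It began 22 nt outside the annotated gene start in replicate 1 and 8 nt inside it in replicate 2, and both ended at the same base. The folds differed by 1.28 on the log2 scale, and 4.81% of all 2642 shared peaks differed by more. Across all shared peaks the median absolute difference was 0.30 and 95% differed by less than 1.28.

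SMARCC2 was the only one of the 10 genes with more than 1 shared peak: it had 3, which 85 of the 2101 protein-coding genes with a shared peak (4.05%) reached or passed. Its strongest peak lay on chromosome 12, minus strand, from 56189418 to 56189567 in both replicates, with folds of 16.9 and 14.0. That peak ran from 84 nt outside the annotated gene start to 65 nt inside it, and the log2 folds differed by 0.27, less than the median gap of all shared peaks. The second lay from 56168180 to 56171276 in replicate 1 and to 56170184 in replicate 2, with folds of 3.63 and 3.67. It was the most significant of all peaks on the 10 genes, with a log10 false discovery rate of -29.7 in replicate 1 and -22.3 in replicate 2. The third lay from 56178476 to 56179020 in replicate 1 and from 56178506 to 56179049 in replicate 2, with folds of 1.82 and 1.56. The fold was thus highest at the gene start of SMARCC2 and lower at both places inside it, in both replicates.

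The internal SMARCC2 peaks were split into blocks, as a peak is when it crosses spliced-out sequence. The peak with folds of 3.63 and 3.67 had 5 blocks covering 389 nt in replicate 1 and 4 blocks covering 359 nt in replicate 2. The gaps between blocks were 1334, 80 and 232 nt in both replicates, and replicate 1 had 1 more gap of 1062 nt. The peak with folds of 1.82 and 1.56 had 3 blocks in each replicate, with gaps of 275 and 149 nt in both. Both replicates listed several blocks for 31% of all shared peaks, and for 3 of the 8 on the SWI/SNF genes: these 2 and the SMARCA4 peak below. Exon and transcript annotation was not used here.

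The ARID subunits carried strong shared peaks too, with ARID1A above SMARCC2 in replicate 1 and below it in replicate 2. ARID1A and ARID1B encode alternative DNA-binding subunits of the canonical BAF complex, and ARID1A is often mutated in cancer. ARID1A had a single peak of 689 nt in replicate 1 with a fold of 23.8, on chromosome 1, plus strand, from 26696091 to 26696779. In replicate 2 the same stretch was listed as 2 peaks 59 nt apart, from 26696061 to 26696360 with a fold of 10.6 and from 26696420 to 26696809 with a fold of 8.72. The replicate 1 peak overlapped the first by 270 nt and the second by 360 nt, so the second was taken as its partner. The log2 folds of that pair differed by 1.45, a gap that 3.56% of all shared peaks passed. The gap depends on this choice of partner, and would be smaller against the first, with its fold of 10.6. The enriched stretch began 76 nt inside the annotated gene start in replicate 1 and 46 nt inside it in replicate 2. The span of LOC124900417 also covers part of it, on a strand that the gene table leaves unstated.

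ARID1A carried further peaks that were not shared. Replicate 1 had one from 26697347 to 26697437 with a fold of 4.07. Replicate 2 had one from 26779358 to 26779418 with a fold of 2.43, which ended 2686 nt before the annotated gene end and had a log10 false discovery rate of -1.47, against a weakest value of -1.32 in that table.

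ARID1B had 2 peaks in each replicate, and 1 was shared. The shared peak lay on chromosome 6, plus strand, from 156778830 to 156779040 in replicate 1 with a fold of 10.5, and from 156778800 to 156779040 in replicate 2 with a fold of 11.5. The log2 folds differed by 0.13, and 75.3% of all shared peaks differed by more. This peak began 2804 and 2774 nt inside the annotated gene start. RefSeq lists a further ARID1B start at 156777378, from which it began 1452 and 1422 nt away. The other peaks were near each other and did not overlap: replicate 1 had 156778200 to 156778260 with a fold of 4.21, and replicate 2 had 156777990 to 156778170 with a fold of 11.2. Like those of ARID1A, all ARID1B peaks were of 1 block, and all lay in the first 3014 nt of a gene of 434754 nt. The span of LOC115308161 covers the unshared peaks.

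**Figure D2:**
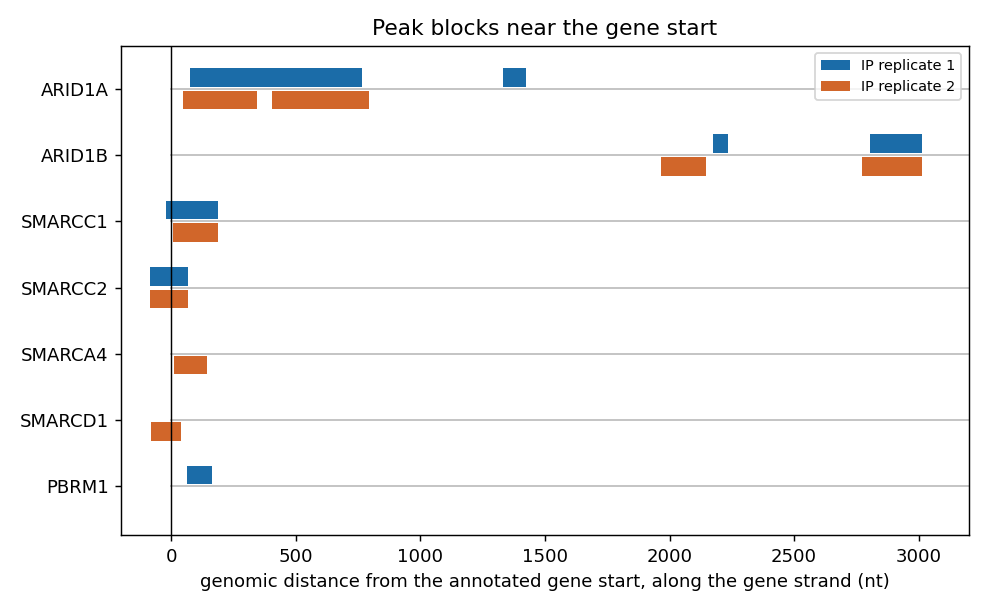
Blocks of the peaks that lie between 200 nt before and 3200 nt after the annotated gene start, by genomic distance along the gene's strand (x axis, nt), with IP replicate 1 above IP replicate 2 for each gene. SMARCC1, SMARCC2 and ARID1A have blocks in both replicates near the start, SMARCA4 and SMARCD1 only in replicate 2 and PBRM1 only in replicate 1, and the blocks of ARID1B lie further in.

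The ATPase subunits had weaker or unshared peaks. SMARCA4, one of the alternative ATPase motors, had 1 peak in replicate 1 and 3 in replicate 2. The shared SMARCA4 peak lay on chromosome 19, plus strand, from 11003069 to 11007962 with a fold of 2.94 in replicate 1, and from 11003099 to 11007932 with a fold of 2.54 in replicate 2. It had 3 blocks with gaps of 180 and 4504 nt in both replicates, and its log2 folds differed by 0.21. The replicate 2 peaks without a partner were one from 10961042 to 10984121 with a fold of 5.62 and one from 10985289 to 10986221 with a fold of 2.41. The first of these began 12 nt inside the annotated gene start, and its blocks of 133, 76 and 1 nt were parted by gaps of 19602 and 3268 nt. RefSeq lists a further SMARCA4 start at 10984124. The first of these peaks ended 3 nt before that start, and the other began 1165 nt after it. SMARCA2, the other ATPase, had a single peak in replicate 2, on chromosome 9, plus strand, from 2123765 to 2123885, with a fold of 4.48. It lay 108418 nt inside the annotated gene start and 33777 nt from the nearest start that RefSeq lists.

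SMARCE1, an HMG-box subunit that contacts DNA, had the lowest fold among the genes' strongest shared peaks. Its peaks lay on chromosome 17, minus strand, from 40630731 to 40630790 with a fold of 1.44 in replicate 1, and from 40628861 to 40630910 with a fold of 1.98 in replicate 2. Replicate 1 thus called 60 nt and replicate 2 called 330 nt in 2 blocks. All 60 nt lay in the replicate 2 peak and made up 18.2% of it, and the log10 false discovery rates were -2.79 and -14.7. This is the shared peak that was lost when an overlap of 50% of both peaks was required.

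The remaining subunits had a peak in 1 replicate only. SMARCD1, which bridges the complex to transcription factors, had a replicate 2 peak with a fold of 4.29 on chromosome 12, plus strand, from 50085260 to 50085379. It spanned the annotated gene start, from 82 nt outside it to 37 nt inside it. PBRM1, the subunit with several bromodomains that marks the PBAF form, had a replicate 1 peak with a fold of 7.40 on chromosome 3, minus strand, from 52679705 to 52685850. Its blocks of 19 and 102 nt were 6025 nt apart, and it began 63 nt inside the annotated gene start. SMARCB1, a core subunit that contacts the nucleosome, had a replicate 2 peak with a fold of 1.43 on chromosome 22, plus strand, from 23793684 to 23801059. Of its 121 nt, 116 lay in 1 block, and its fold was the lowest of all 27 peaks on the 10 genes. A missing peak in 1 table means only that none passed the authors' threshold there.

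Sequence at the start is shown for the SWI/SNF genes whose peak covered bases around a start that RefSeq lists (GRCh38.p14), SMARCD1 and SMARCA4. Both stretches run 5′ to 3′ on the plus strand from 120 bases before the first base of the listed transcript to 30 bases into it. Capitals mark the bases covered by the replicate 2 peak. The positions are chr12:50085222-50085371 for SMARCD1 and chr19:10960910-10961059 for SMARCA4.
SMARCD1: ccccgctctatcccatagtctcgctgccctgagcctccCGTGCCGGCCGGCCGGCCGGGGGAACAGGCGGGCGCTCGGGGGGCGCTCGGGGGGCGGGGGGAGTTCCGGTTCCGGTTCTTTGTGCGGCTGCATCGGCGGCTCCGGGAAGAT
SMARCA4: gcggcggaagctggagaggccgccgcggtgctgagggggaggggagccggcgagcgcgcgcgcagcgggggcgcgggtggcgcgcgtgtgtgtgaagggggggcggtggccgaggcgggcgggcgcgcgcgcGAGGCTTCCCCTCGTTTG

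Transcribed bases are counted here from the start that RefSeq lists. In SMARCD1 the peak covered 112 of the 150 bases shown. It began 82 bases before that start and took in all 30 bases counted as transcribed. In SMARCA4 the peak covered the last 18, from transcribed base 13 on. G and C made up 74.7% of the SMARCD1 stretch and 81.3% of the SMARCA4 stretch. The letters GANGAN, described for m7G sites bound by the RNA-binding protein QKI, were searched on both strands in the first 50 transcribed bases of each RefSeq start. In SMARCD1 they occur from transcribed base 25 on, at the end of the stretch shown. Of 14 listed starts of 8 SWI/SNF genes, 4 (28.6%) held GANGAN on the transcribed strand and 2 (14.3%) on the other, against 18.7% and 15.8% of 22199 starts of protein-coding genes. The 4 were starts of SMARCA2 (2 of them), SMARCD1 and SMARCA4 (the start at 10984124). The 300-base windows around these starts had a median of 63.5% G and C (range 37.7 to 82.3%), against a median of 62.3% over protein-coding starts. SMARCC1 and SMARCC2 were not among the 8 genes matched.

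The folds of shared peaks put SMARCC1, SMARCC2, ARID1A and ARID1B above SMARCA4 and SMARCE1. Taking each gene's strongest shared peak, the ranges spanned by both replicates overlapped between SMARCC1 and SMARCC2, between SMARCC1 and ARID1A, between SMARCC2 and ARID1A, and between ARID1A and ARID1B. The other 11 of the 15 pairs of genes did not overlap. The share of such pairs among all genes with a shared peak was not computed, so the count only describes these genes. Some of the gaps between the 11 pairs were small in 1 or both replicates. On the log2 scale SMARCC1 stood above ARID1B by 1.63 in replicate 1 and 0.21 in replicate 2, SMARCC2 above ARID1B by 0.69 and 0.28, and SMARCA4 above SMARCE1 by 1.03 and 0.36. None of these gaps exceeded, in both replicates, the 1.28 within which 95% of shared peaks lay between replicates. ARID1B stood above SMARCA4 by 1.84 and 2.18, more than that spread. The median over the 6 genes was 3.65 on the log2 scale, a fold of 12.6, against 2.20, a fold of 4.6, over the 2101 protein-coding genes with a shared peak. With all peaks of replicate 2 alone the median was 2.49, taken over the 9 genes with a peak there. With the median over each of the 6 genes' shared peaks in place of the strongest it was 2.66. The value over all protein-coding genes was not computed under these 2 rules. A shared peak with both folds at 4 or more was present on 4 of the 10 genes, against 5.17% of all protein-coding genes. Among genes with a shared peak, it was 4 of 6 against 1036 of 2101.

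**Figure D3:**
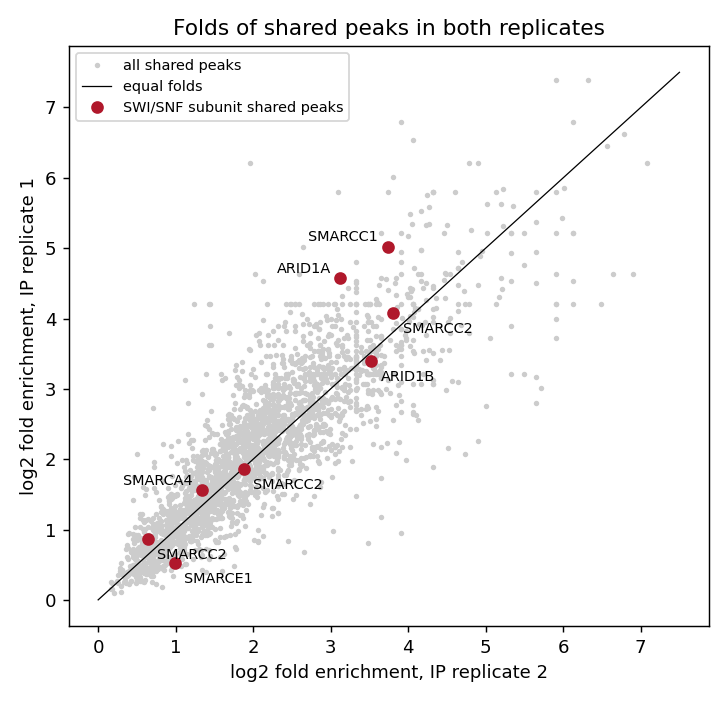
Log2 fold enrichment of IP over input in IP replicate 1 (y axis) against IP replicate 2 (x axis) for all 2642 shared peaks (grey) and the 8 on SWI/SNF mRNAs (red, named), with a line of equal folds. SMARCC1 and ARID1A lie furthest from the line among the named peaks, both with the higher fold in replicate 1.

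Among the shared peaks, high folds lay toward the 5′ end of these genes. The 4 shared peaks with midpoints within 3000 nt of the annotated gene start, those of SMARCC1, SMARCC2, ARID1A and ARID1B, had folds from 8.72 to 32.4. The 4 further inside, of SMARCC2 (2 peaks), SMARCA4 and SMARCE1, had folds from 1.44 to 3.67, so the ranges did not overlap. The distance of 3000 nt was set after these values had been seen. With unshared peaks included, the ranges overlapped. The SMARCA2 peak of replicate 2, with its midpoint 108478 nt inside, had a fold of 4.48. That was above the 4.29 of the SMARCD1 peak at the gene start. Medians of the geometric mean fold of both replicates were 14.9 within it and 2.15 beyond it on the SWI/SNF genes, against 5.17 (1299 peaks) and 3.21 (1337 peaks) over all protein-coding genes, where the ranges overlapped widely. Distances are genomic and include introns.

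Midpoints within 200 nt of the annotated start were found for 2 of the 8 shared peaks, those of SMARCC1 and SMARCC2, against 22.6% of all shared peaks, so this count did not stand far from the background. In single replicates they were found for 3 of 11 peaks in replicate 1 (SMARCC1, SMARCC2 and PBRM1), against 22.6% of all peaks there. In replicate 2 it was 5 of 16 (SMARCC1, SMARCC2, ARID1A, SMARCA4 and SMARCD1), against 19% of all peaks there. In all, 6 of the 10 genes had such a peak in at least 1 replicate, against 6.69% of all protein-coding genes. That contrast includes having any peak, which all 10 genes did. Among protein-coding genes with a peak in either replicate, 1341 of 4340 had such a peak.

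**Figure D4:**
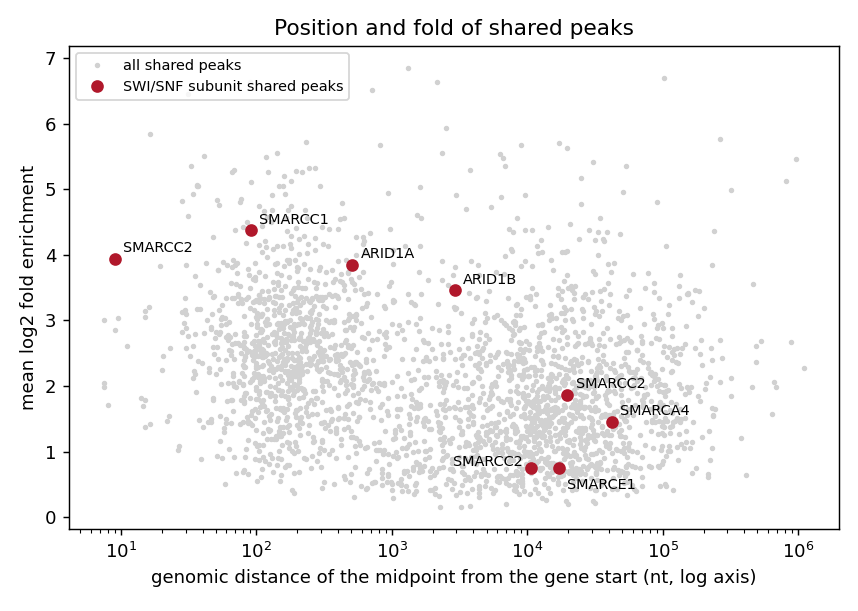
Mean log2 fold enrichment over both replicates (y axis) against the genomic distance of the peak midpoint from the annotated gene start (x axis, nt, log scale) for all shared peaks on protein-coding genes (grey) and those on SWI/SNF mRNAs (red, named). The 4 red points within 3000 nt of the start lie above the 4 beyond it, while the grey points of both regions overlap.

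On the 10 genes, peaks that overlapped one of the other replicate were more significant in the median. The same medians over all peaks were not computed, so the difference may not be particular to these genes. Of the replicate 1 peaks on the 10 genes, 8 of 11 (72.7%, Wilson 95% interval 43.4 to 90.3%) overlapped a replicate 2 peak, against 62.6% of all replicate 1 peaks. Of the replicate 2 peaks, 9 of 16 (56.2%, 33.2 to 76.9%) overlapped a replicate 1 peak, against 55.9% of all replicate 2 peaks. Both shares were near those of the whole tables. Several of these peaks lie on the same gene, which the intervals do not allow for. The median log10 false discovery rate was -8.71 for overlapping and -2.81 for other peaks in replicate 1, and -10.7 and -2.72 in replicate 2. The values overlapped: log10 false discovery rates ran from -29.7 to -2.58 over the 17 overlapping peaks and from -5 to -1.47 over the other 10, whose folds ran from 1.43 to 11.2.

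Other subunits of the same complexes were counted in the same way. Of 18 further SWI/SNF subunits, 9 had a peak in either replicate and 4 a shared peak (22.2%, Wilson 95% interval 9.00 to 45.2%). The shares over all protein-coding genes were 21.7% and 10.5%. PHF10, a PBAF subunit that reads histone tails, had folds of 10.7 and 5.62. BCL7C, a small accessory subunit, had 4.76 and 14.7. DPF2, the histone reader of canonical BAF, had 2 shared peaks, with 7.30 and 7.20 at the stronger, and BRD9, the bromodomain subunit of the non-canonical form, had 2.95 and 3. Their median of the strongest shared peak was 2.91 on the log2 scale. The interval overlaps that of the 10 genes, and no test between the lists was made.

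Among the other remodeller families, 4 of 12 ISWI genes (33.3%) and 3 of 21 INO80 and SRCAP genes (14.3%) had a shared peak. The share over all protein-coding genes was 10.5%. A peak in either replicate was present on 8 ISWI genes (66.7%) and 9 INO80 and SRCAP genes (42.9%), against 21.7% of all. BPTF, the large subunit of the NURF complex, had 21.6 and 9.37, while BAZ1B (2.66 and 2.83), BAZ2A (1.91 and 2.04) and POLE3 (1.54 and 2.72) were lower. YY1, a transcription factor of the INO80 complex, had 6.08 and 6.64, INO80B 3.70 and 3.81, and the AAA+ ATPase RUVBL2 1.99 and 1.91. Both folds were 4 or more for 1 gene of each of these lists and for 3 of the further SWI/SNF subunits. Over all protein-coding genes this was 5.17%. The medians of the strongest shared peak were 1.24 for ISWI and 1.91 for INO80 and SRCAP on the log2 scale. These lists are small, and no test between them was made.

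**Figure D5:**
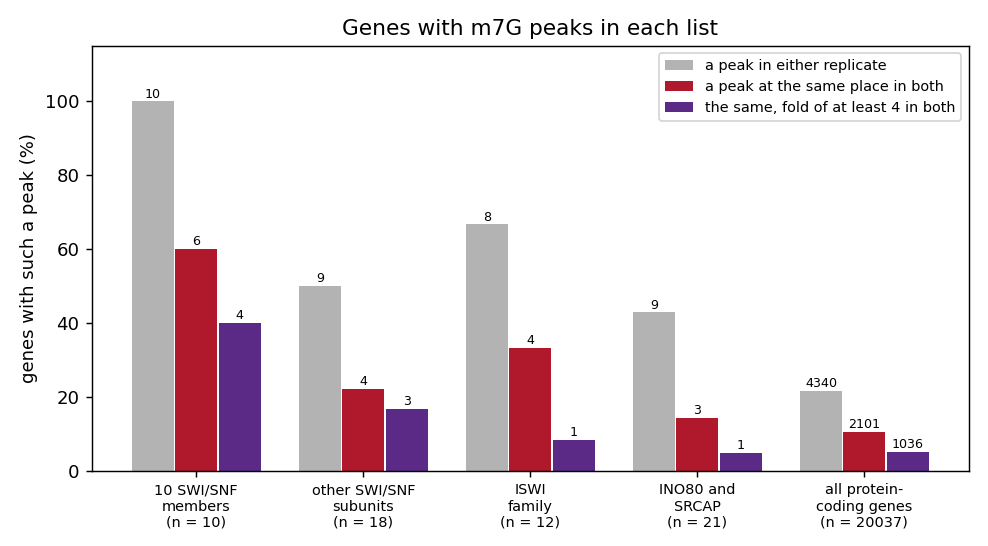
Percentage of genes (y axis) with a peak in either replicate, with a shared peak, and with a shared peak of fold 4 or more in each replicate, for the 10 SWI/SNF genes, 3 further lists of remodeller genes and all protein-coding genes; numbers over the bars are counts of genes. All 10 SWI/SNF genes had a peak in either replicate and 6 a shared one, against 4340 and 2101 of 20037 protein-coding genes.

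SMARCC2 had the highest lower fold of both replicates among the 10 genes. The genes nearest to it in the log2 folds of their strongest shared peak, over 2 replicates and 2100 other genes, were LDB1 (16.7 and 13.7), PABPN1 (18.0 and 14.5) and KCMF1 (16.1 and 15.1), at distances of 0.04, 0.10 and 0.13.

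Across both tables, 99.9% and 99.8% of peaks were matched to a gene of the RefSeq table. Of 10 mesenchymal and osteoblast markers, 5 had a shared peak (COL1A1, SPARC, VIM, FN1 and COL5A1), against 10.5% of all protein-coding genes. THY1 had peaks in replicate 2 only, and COL1A2, RUNX2, TWIST1 and ALPL had none. Of 16 listed haematopoietic, epithelial, hepatocyte and neuronal markers, 0 had a peak in either table, against 21.7% of all protein-coding genes. That list is short, and other epithelial and neuronal genes, such as KRT18, CLDN4, NEFL and VGF (named after their peaks were seen), had shared peaks. The median fold was 4.27 in replicate 1 and 3.48 in replicate 2 over all peaks, and 4.21 and 4.38 over peaks on the SWI/SNF genes. The most frequent fold of 10 or more was 18.5 in replicate 1 (67 of 4326 peaks) and 10 in replicate 2 (60 of 4862 peaks). Of the 27 peaks on the SWI/SNF genes, 0 were at a whole multiple of it (within 0.05). Most of the 27 had folds below the value of their replicate, and few peaks of either replicate stood at it. The 0 therefore says little about these genes.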

How the data were processed

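The authors mapped reads with STAR to GRCh38, per the submitters' processing notes, while no source used here names their peak caller. Per the file headers, the deposited values of a peak are a p-value and, each on a log10 scale and treated as a score, that p-value and its false discovery rate. The deposited fold enrichment is a linear ratio of IP to input, whose scaling by the authors no source used here states. The input libraries have no table of their own here. The tables hold peaks to a false discovery rate of 0.0490 and 0.0479.

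Peaks were assigned to the 10 genes by the name column. For other genes, symbols or synonyms of the RefSeq table (GRCh38.p14) within 2000 nt were accepted. Positions are 1-based. A distance was taken at the midpoint of a peak's joined blocks, averaged over both replicates for a shared peak, or from the end of the peak that is named. The genes, lists and rules were chosen with earlier results of these data known, so no test was made over them and all shares are descriptions. The rule for named genes took all 10 genes with every peak, the genes of the other lists with a shared peak, and the 3 genes nearest in fold to whichever of the 10 had the highest fold when the lower replicate is taken (SMARCC2). Wilson intervals cover counting error only. The overlap search was tested on simulated peaks of a single block, none with more than a single possible partner. Peaks of several blocks or with several partners, such as that of ARID1A, were not simulated. Alternatives were other overlap rules, stricter peaks, single replicates, other summaries and other distances. Python 3.11.15 was used with pandas 2.3.3, scipy 1.17.1, numpy 2.4.6 and, for plots, matplotlib 3.10.9.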

Additional observations from a re-analysis of the deposited data

How the results depend on the processing

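Of 60 alternative values for 8 results, 43 stayed near the main value (within 1.5 times for counts) and 17 moved. Shared peaks on the 10 SWI/SNF genes numbered 5 among the more significant peaks of each table (to the median false discovery rate) and 4 at a fold of at least 4, against 8, and 11 to 16 with 1 replicate left out. The genes with a shared peak numbered 4 to 6 under other rules for sharing and peaks, and 7 to 9 with 1 replicate left out. Their median log2 fold was 3.26 with the lower fold of both replicates and 2.66 with the median over each gene's peaks. With 1 replicate left out it was 2.49 (9 genes with a peak in replicate 2) and 3.39 (7 genes with a peak in replicate 1). Peaks near the gene start numbered 3 to 5 with 1 replicate left out, against 2. Of the further SWI/SNF subunits, 2 were counted with midpoints within 100 nt, and 5 to 8 with 1 replicate left out. ISWI genes numbered 1 among the more significant peaks, 2 at a fold of at least 2 and 1 at a fold of at least 4, and 5 to 7 with 1 replicate left out. INO80 and SRCAP genes numbered 1 among the more significant peaks and 1 at a fold of at least 4, and 5 to 7 with 1 replicate left out. A stricter rule leaves fewer peaks by its construction, and a single table needs no overlap. With no counts, the depth behind a peak is unknown. No paired analysis was possible because no test between groups was made and the input libraries have no table of their own here.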
